A study of Mus musculus with 4 samples.

Results

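The nicotinic acetylcholine receptor of skeletal muscle and the proteins that gather it under the motor nerve were followed through 9 genes: Chrna1, Chrnb1, Chrnd, Chrng, Chrne, Musk, Rapsn, Dok7 and Lrp4. They were taken by symbol from the 32285 genes of each count file, and all 9 were present. The study profiled muscle stem cells of MyoD-KI mice, a knock-in line in which a tdTomato fluorescent protein reports MyoD, the muscle-lineage transcription factor encoded by Myod1. The cells came from skeletal muscle, were cultured for 5 days in a serum-rich growth medium and were sorted for high MyoD-tdTomato signal, after which they were profiled by 10x Genomics droplet sequencing of transcript 3′ ends. All 4 samples, replicates 1 to 4, belong to this 1 group, so every cell described here carries the knock-in and the same culture history. Mouse age, mouse number and nerve contact are not given in the sources used here, and cells sorted for low signal were not analysed here.

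The muscle receptor is a pentameric ion channel with alpha (Chrna1), beta (Chrnb1) and delta (Chrnd) subunits plus a gamma subunit (Chrng) in fetal or denervated muscle, which is replaced by an epsilon subunit (Chrne) at the mature synapse. Nerve-derived agrin binds Lrp4, a low-density lipoprotein receptor relative that activates the receptor tyrosine kinase MuSK (Musk). Dok-7 (Dok7) is the cytoplasmic adaptor that activates MuSK from inside the cell, and rapsyn (Rapsn) is the scaffold that clusters the receptors. Receptor subunit genes are known to be switched on when myoblasts begin to differentiate, under myogenic factors that bind E-boxes, whereas Chrne depends in large part on nerve signals acting through an ETS-factor site called the N-box.

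Start-site sequences are shown for 1 gene that was abundant in these cells, for the fetal subunit and for the adult subunit, since the contrast of the last pair recurs below. RefSeq windows on GRCm38.p6, from 250 bases before to 50 bases after a start, were found for 6 of the 9 genes (Chrna1, Chrnb1, Chrng, Chrne, Musk and Dok7). The 250 bases before each start follow, 5′ to 3′ on the gene's own strand, with capitals marking the E-box CAGCTG and the N-box core CCGGAA on either strand.
Chrna1, chr2:73580339-73580588, minus strand: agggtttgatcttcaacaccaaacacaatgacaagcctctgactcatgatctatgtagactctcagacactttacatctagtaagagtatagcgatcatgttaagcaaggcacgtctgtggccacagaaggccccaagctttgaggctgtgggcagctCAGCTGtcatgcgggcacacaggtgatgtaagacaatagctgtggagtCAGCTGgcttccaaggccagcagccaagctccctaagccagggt
Chrng, chr1:87205561-87205810, plus strand: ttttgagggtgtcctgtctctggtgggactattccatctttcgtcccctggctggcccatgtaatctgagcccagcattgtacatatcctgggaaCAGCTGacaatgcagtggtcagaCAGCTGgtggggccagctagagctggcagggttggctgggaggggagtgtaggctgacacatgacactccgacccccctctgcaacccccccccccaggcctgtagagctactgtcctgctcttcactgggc
Chrne, chr11:70619195-70619444, minus strand: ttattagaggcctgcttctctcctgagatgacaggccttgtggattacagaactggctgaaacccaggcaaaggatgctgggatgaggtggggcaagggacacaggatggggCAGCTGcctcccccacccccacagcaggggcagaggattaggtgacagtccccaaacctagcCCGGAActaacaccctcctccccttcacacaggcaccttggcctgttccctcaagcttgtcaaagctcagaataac
Counted back from the start, CAGCTG begins at -92 and -44 in Chrna1, at -155 and -132 in Chrng and at -138 in Chrne. CCGGAA begins at -76 in Chrne and is absent from the Chrna1 and Chrng windows. Musk held 1 CAGCTG and no CCGGAA, and the Chrnb1 and Dok7 windows held neither. Other E-boxes were present: CAGGTG, read on both strands, begins at -73 in Chrna1 and at -29 in Chrnb1. The general form CANNTG, which includes both, occurred 3 times each in Chrna1, Chrnb1, Chrng and Musk, 1 time in Chrne and 1 time in the first of the 2 Dok7 windows. Of all 32851 RefSeq windows of 300 bases, 16.3% held CAGCTG, 1.90% held at least 2 copies of it, 20.2% held CAGGTG, 72.3% held CANNTG and 14.9% held CCGGAA. These matches describe letters in a window and are not evidence of binding.

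In the GENCODE M21 annotation on GRCm38, Chrnd (chr1:87190607-87200070) and Chrng (chr1:87204657-87212694) lie in tandem on the plus strand, 4586 bases apart. The RefSeq start used for the Chrng sequence shown lies inside the Chrng gene as GENCODE places it, since the annotations differ in its first base. Chrna1 (chr2:73563215-73580338, minus strand), Rapsn (chr2:91035620-91045729, plus strand) and Lrp4 (chr2:91457511-91513779, plus strand) are on chromosome 2. Chrnb1 (chr11:69784036-69795943) and Chrne (chr11:70614883-70619216) are on the minus strand of chromosome 11, Musk is at chr4:58285960-58374303 and Dok7 at chr5:35056766-35087839, both on the plus strand. An antisense transcript, Gm13778, overlaps the 3′ end of Rapsn over 1638 bases, and the overlap of Chrne with 4930544D05Rik on the other strand (1043 bases) does not reach the 3′ end of Chrne. Values cover the whole gene rows, exons and any counted introns together.

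The 4 files held 62627341 to 68898900 unique molecular identifiers (UMIs, 1 per captured molecule) in 5950 to 5974 barcodes. Each pair of files shared 5946 to 5965 barcodes, at least 99.9% of the smaller file, with cell totals correlated at r = 0.9996 to 0.9997. Differences between files in the counts of single cells were smaller than independent draws of molecules give, at 0.857 to 0.867 of that spread as a sum of squares, so some molecules may be counted in several files. The replicates hold 1 set of cells and were counted as 1 sample, and whether they are separate libraries or repeat sequencing of 1 library cannot be told apart: values are means over the files, no test between samples was possible, and intervals are exact 95% counting intervals at the count of 1 file. Of 5944 barcodes found in all files, 5481 were kept as cells (at least 1000 genes and under 10% mitochondrial UMIs, median 11049 UMIs). The label of muscle cells matched the markers: 10 of 10 myocyte genes reached at least 1 CPM (UMIs of a gene per 1000000 UMIs, summed 11668 CPM), and 5 of 7 stem or progenitor genes did so (summed 233 CPM). Cells that accompany a synapse were scarce by their markers. Schwann cell genes summed to 5.92 CPM with 2 of 7 at 1 CPM or more (Sox10 at 0.0151 CPM), neuronal genes summed to 10.5 CPM with 3 of 7 at that level, and Chat, the acetylcholine-synthesizing enzyme of motor neurons, was listed at 0. Of the other marker lists, 1 of 5 fibroblast genes reached 1 CPM (Col3a1 at 110 CPM), as did 4 of 5 pericyte genes (summed 33.9 CPM) and 0 of 4 endothelial and 0 of 4 immune genes.

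Transcripts of the embryonic receptor and of its clustering machinery were present, and those of the adult subunit were nearly missing. Chrna1 stood at 956, 957, 949 and 950 CPM in replicates 1 to 4, with a mean of 953 CPM (interval 946 to 960), above 99.2% of the 20878 genes with at least 1 UMI per file. Next came Rapsn at 159 CPM (interval 156 to 162), Musk at 125 CPM, Chrng at 84.96 CPM, Chrnb1 at 58.0 CPM and Dok7 at 44.9 CPM. Lrp4 at 39.1 CPM (interval 37.6 to 40.7) and Chrnd at 37.3 CPM (interval 35.8 to 38.8) were neighbours whose intervals overlap, and every other pair of neighbours in this order was separated by more than counting error. The files differed little, with Chrng at 84.4, 84.3, 85.2 and 86.0 CPM and Dok7 at 46.4, 44.7, 44.2 and 44.3 CPM. Because each molecule is counted once at its 3′ end, the values were not divided by transcript length, although reads from introns, if counted, add to long genes such as Musk, which spans 88344 bases, and Lrp4, which spans 56269 bases. The 9 genes summed to 1501 CPM, most of it from Chrna1.

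**Figure D1:**
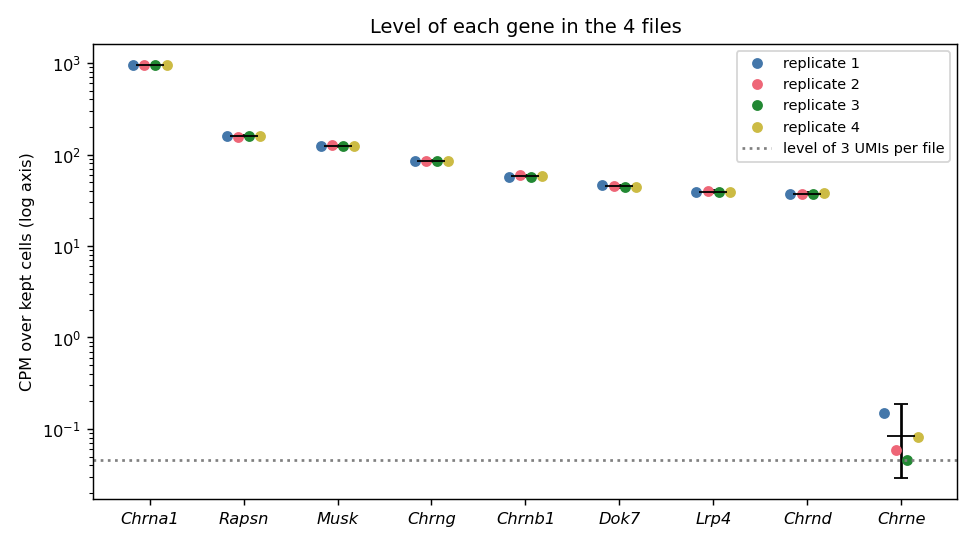
Level of each gene in CPM over the kept cells (log axis), with 1 point for each of the 4 files and a dotted line at the level of 3 UMIs per file. Chrna1 lies near 953 CPM and 7 genes lie between 37.3 and 159 CPM, whereas Chrne lies at 0.0452 to 0.148 CPM, around the dotted line.

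The gamma subunit made up almost all of the gamma and epsilon message. Replicates 1 to 4 held 5698, 5734, 5652 and 5317 UMIs of Chrng and 10, 4, 3 and 5 UMIs of Chrne, so every file showed the same imbalance. Chrng was 99.9% of the sum (interval 99.78% to 99.97%), and in every bin of Myog or of sarcomere gene level described below it was at least 99.45%. Over all files, 17 cells held a Chrne UMI, of which 5 held it in at least 2 files, possibly as the same molecule, and 0 in all 4, and the highest cell held 2 UMIs over the files. These cells were not gathered at the differentiated end: 8 of the 17 (47.1%) were under 100 CPM of Myog, beside 34.2% of all kept cells, and 7 were at 1000 CPM or more. Chrng was found in any file in 14 of the 17 cells (82.4%), beside 72.7% of all kept cells, and 17 cells are too few to read a difference from. At 5.5 Chrne UMIs per file, close to the 3 UMIs per file taken as the floor, no change of Chrne between cells was detectable at this depth.

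To place the genes along differentiation, cells were binned by the CPM of Myog, the transcription factor myogenin that marks commitment. Bins of under 100, 100 to under 300, 300 to under 1000, 1000 to under 3000, 3000 to under 6000 and at least 6000 CPM held 1876, 588, 458, 997, 1230 and 332 cells. Chrna1 stood at 538, 685, 834, 1124, 1431 and 1712 CPM in this order, so it was already above every other member in the lowest bin and was higher in each bin that followed. The fetal subunit Chrng stood at 22.3, 40.5, 61.4, 121, 157 and 173 CPM, and Chrnd, its tandem neighbour, at 11.3, 19.8, 31.8, 51.1, 67.0 and 71.2 CPM. Both started at a small share of their highest level, 12.8% for Chrng and 15.9% for Chrnd, against 31.4% for Chrna1 and 43.2% for Chrnb1. Chrnb1 stood at 37.1, 46.9, 55.9, 67.7, 80.9 and 85.9 CPM. As a result, subunit proportions shifted along Myog: Chrng message was 4.14% of Chrna1 message in the lowest bin and 10.1% in the highest, while Chrnb1 message went from 6.90% to 5.02% of Chrna1 message.

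The clustering genes did not share a single course. Dok7 followed the subunits, at 12.4, 24.4, 39.7, 61.6, 80.7 and 89.8 CPM. Rapsn was present from the start, at 119, 139, 146, 174, 206 and 220 CPM, and its lowest bin already held 54.1% of its highest level. Over all kept cells, the kinase gene Musk peaked in the middle, at 80.4, 109, 157, 179, 146 and 81.4 CPM, so its last bin was at 45.4% of its highest. Its co-receptor gene Lrp4 peaked 1 bin earlier, at 29.8, 47.8, 56.2, 52.0, 34.8 and 20.1 CPM, with the last bin at 35.8% of the highest. Lrp4 message was 37.1% of Musk message in the lowest bin and 24.7% in the highest. In cells under 300 CPM of summed Acta1 and Myh3, sarcomere genes described below, Musk showed no such decline along Myog. It stood at 79.4, 107, 141, 166 and 165 CPM from the lowest bin to that of 3000 to under 6000 CPM. The highest bin held only 6 such cells. In the cells low in Acta1 and Myh3, Lrp4 was at 54.8 CPM (interval 47.8 to 62.7) at 300 to under 1000 CPM of Myog. It was at 36.5 CPM (interval 24.1 to 52.3) at 3000 to under 6000 CPM, in 93 cells. These intervals overlap, and replicate 4 stood at 51.3 and 51.9 CPM, so a decline of Lrp4 was not settled in these cells. Chrna1, Chrnd, Chrng and Dok7 first reached 50% of their highest level at 1000 to under 3000 CPM of Myog, Chrnb1 and Musk at 100 to under 300 CPM, and Rapsn and Lrp4 were past it in the lowest bin. When bins were set on replicates 1 and 2 and levels were read from replicates 3 and 4, these bins were unchanged for all 8 genes. The replicates hold the same cells and possibly the same molecules, so this was not an independent check.

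**Figure D2:**
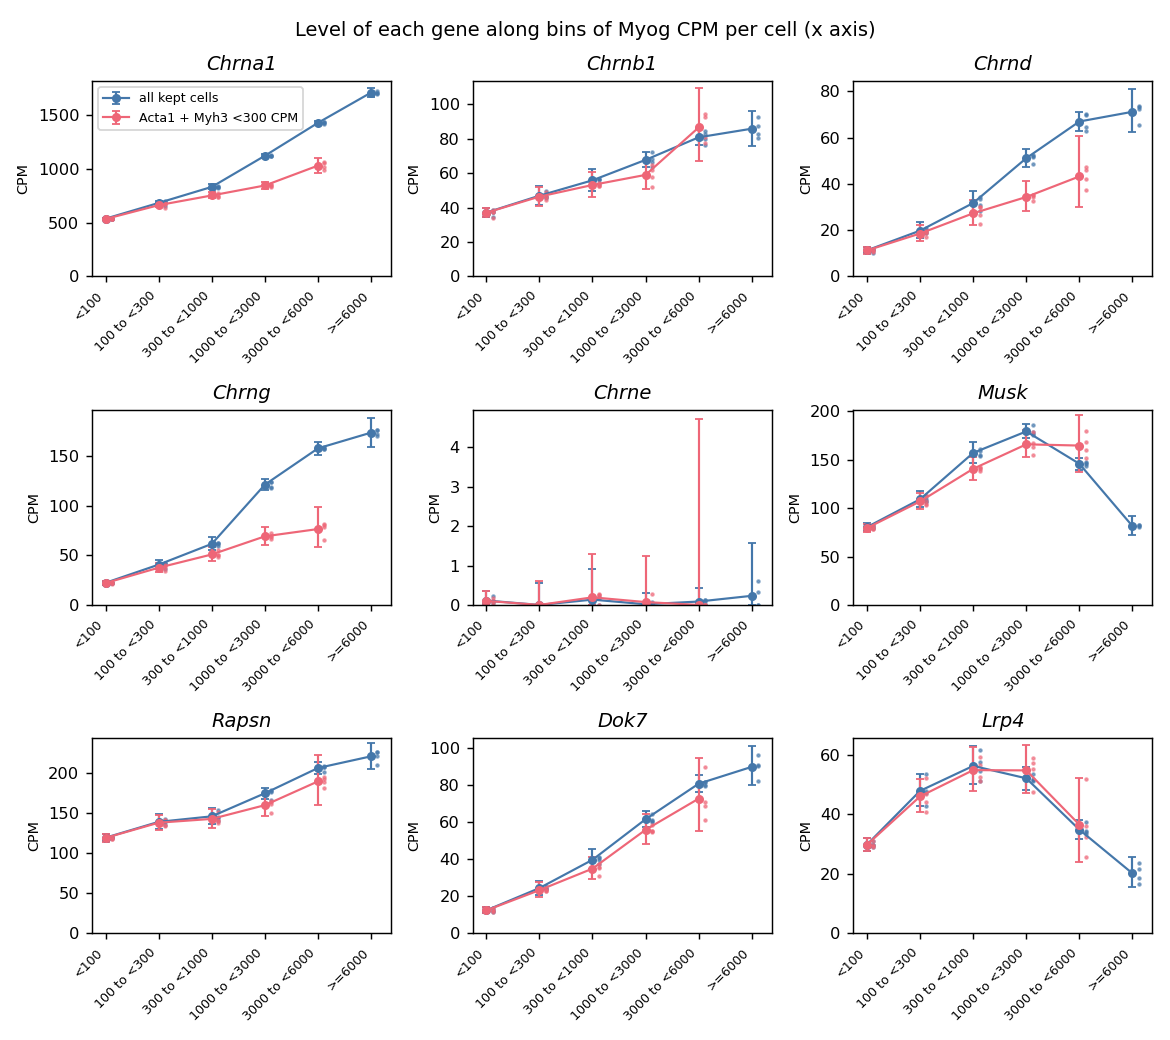
Level in CPM (linear axis from 0) against bins of Myog CPM, 1 panel per gene, for all kept cells and for cells under 300 CPM of summed Acta1 and Myh3, with 95% counting intervals as bars and lines joining bins. In all kept cells, Chrng climbs from 22.3 to 173 CPM, whereas Musk peaks at 179 CPM and Lrp4 at 56.2 CPM in middle bins before they decline. In the cells low in Acta1 and Myh3, Musk is at 166 CPM at 1000 to under 3000 CPM of Myog and at 165 CPM at 3000 to under 6000 CPM.

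Comparing the 2559 cells at Myog of at least 1000 CPM with the 1876 cells under 100 CPM, 5 of the 8 members tested were at least 2-fold higher and 0 were at least 2-fold lower. Chrne had too few UMIs for this rule, which asks for at least 20 UMIs per file over both sides. Of all 14447 genes tested, 7.32% were higher by this rule and 14.8% were lower. On the high side, Chrng stood at 142, 142, 144 and 145 CPM in replicates 1 to 4, which share their cells. On the low side it stood at 22.5, 21.6, 23.0 and 22.0 CPM. Its log2 ratio of CPM plus 1 was 2.63 (interval 2.50 to 2.76). Dok7 stood at 75.6, 73.1, 72.6 and 71.8 CPM against 13.46, 12.01, 11.66 and 12.59 CPM, a log2 ratio of 2.47 (interval 2.30 to 2.64). Chrnd stood at 59.1, 60.9, 59.3 and 62.8 CPM against 11.97, 10.36, 11.34 and 11.49 CPM, a log2 ratio of 2.32 (interval 2.15 to 2.50). Chrna1 was also past 2-fold, at a log2 ratio of 1.30 (interval 1.27 to 1.33), and Chrnb1 was at the threshold, at 1.01 (interval 0.89 to 1.12), which was 0.97 without replicate 4 and 0.998 without replicate 2. Musk (0.93), Rapsn (0.70) and Lrp4 (0.44) stayed under it. The members' median log2 ratio was 1.15, against -0.24 for all genes tested. With scaling by edgeR's TMM factors, which moves the all-gene median by over 0.1 toward 0, Musk was past 2-fold as well, at 1.21. Summed stem and progenitor markers stood at 126 CPM on the high side and 368 CPM on the low side, and fibroblast markers at 62.2 and 165 CPM; their part in the ratios was not tested.

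A second axis was the summed CPM of Acta1 and Myh3, the skeletal alpha-actin and embryonic myosin heavy chain genes of the sarcomere. Its bins of under 50, 50 to under 300, 300 to under 1000, 1000 to under 3000, 3000 to under 10000 and at least 10000 CPM held 824, 2288, 470, 536, 887 and 476 cells. Chrng was at 31.2, 34.1, 68.9, 96.1, 159 and 249 CPM and Chrnd at 16.3, 17.3, 34.3, 45.7, 66.2 and 94.6 CPM, both still climbing in the last bin. Chrna1 likewise reached its highest level there, 1946 CPM, from 606 CPM in the first bin. Dok7, by contrast, levelled off: it was at 17.9, 23.4, 56.1, 71.4, 79.1 and 76.5 CPM, and the intervals of its last 3 bins overlap. Chrnb1 levelled off as well, at 73.6, 79.7 and 80.5 CPM in the last 3 bins. Musk was highest at 165 CPM in the third and the fourth bin and stood at 130 CPM in the last, while Lrp4 went from 51.1 CPM in the third bin to 25.9 CPM in the last. Dok7 thus reached 50% of its highest level at 300 to under 1000 CPM, Chrna1 at 1000 to under 3000 CPM, and Chrng and Chrnd at 3000 to under 10000 CPM, where Chrnd came 1 bin earlier with bins and values from different files.

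**Figure D3:**
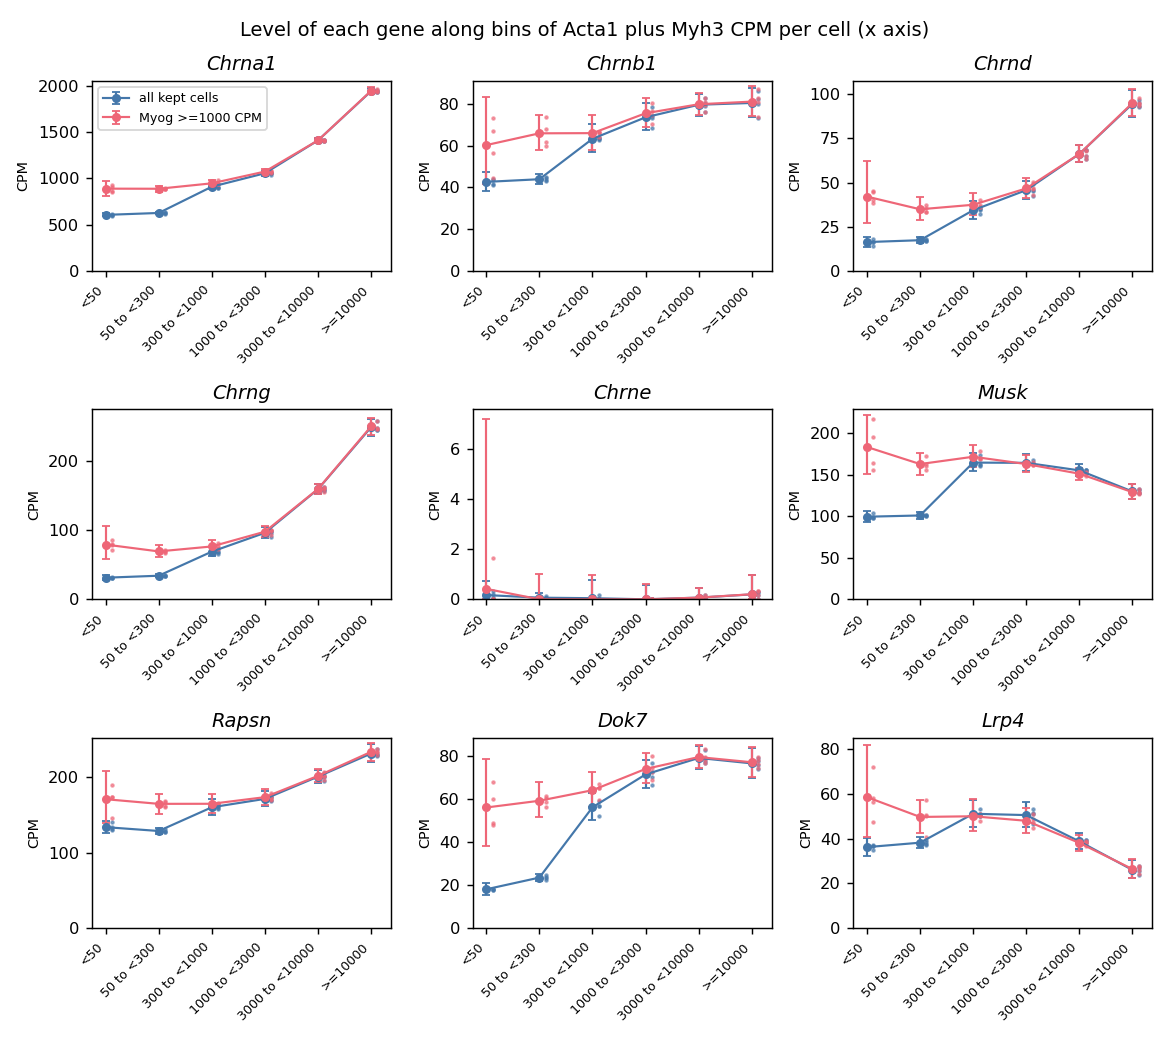
Level in CPM (linear axis from 0) against bins of summed Acta1 and Myh3 CPM, 1 panel per gene, for all kept cells and for cells at Myog of at least 1000 CPM, with 95% counting intervals as bars. Chrng reaches 249 CPM in the last bin of all kept cells, whereas Dok7 is at 79.1 and 76.5 CPM in the last 2 bins.

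Between the 1363 cells at 3000 CPM or more of the sarcomere genes and the 824 cells under 50 CPM, 4 of 8 members were at least 2-fold higher, beside 8.98% of all 13048 genes tested, and 0 were lower, beside 22.2%. These were Chrng (log2 ratio 2.58), Chrnd (2.17), Dok7 (2.06) and Chrna1 (1.40). Chrnb1 at 0.89 and Rapsn at 0.66 were under the threshold and were past it with TMM scaling, at 1.27 and 1.05. Musk was at 0.55, and Lrp4 was at -0.08, or at 0.30 with TMM scaling, so its direction was not settled. The members' median was 1.15 and that of all genes -0.35. Cells on the high side were deeper, with a median of 12104 against 10075 UMIs, and after thinning to 5000 UMIs the same 4 members were past 2-fold.

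Most cells high in sarcomere genes were also high in Myog, so the axes were separated within the 2559 cells at Myog of at least 1000 CPM. There, 1338 cells at 3000 CPM or more of the sarcomere genes were set against 394 cells under 300 CPM. Chrng was at 188, 190, 192 and 197 CPM in replicates 1 to 4 on the high side and at 71.7, 69.6, 67.1 and 73.9 CPM on the low side, a log2 ratio of 1.43 (interval 1.26 to 1.60). Chrnd was at 75.7, 76.9, 74.2 and 78.9 CPM against 34.8, 37.4, 36.9 and 34.4 CPM, a log2 ratio of 1.07 (interval 0.83 to 1.31). Chrng and Chrnd were the 2 of 8 members past 2-fold, beside 6.68% of the 12395 genes tested. None of the 8 was lower by that fold, beside 12.3%. Chrna1 was at 0.85, or 1.14 with TMM scaling, and Dok7 at 0.42. Musk was at -0.21 and Lrp4 at -0.57, whereas TMM scaling put Musk at 0.09 and Lrp4 at -0.28. Myog itself was at 4154 CPM on the high side and 2277 CPM on the low side, and the nuclear RNA Malat1 at 10321 and 6979 CPM. Their part in these ratios was not tested. The members' median was 0.39, against -0.27 for all genes.

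Pax7, the transcription factor of muscle stem cells, was used to find the least committed cells after every cell had been thinned to 5000 UMIs per file, which left 5197 cells. On average 1050.25 cells per file had a Pax7 UMI and 4146.75 did not. Chrng was at 34.2, 29.8, 32.3 and 32.5 CPM in Pax7-detected cells and at 95.9, 96.6, 98.4 and 102 CPM in the others, and thus fell by 1.58 on the log2 scale (interval -1.81 to -1.36). Dok7 fell by 1.38, at 19.1, 14.2, 20.3 and 22.5 CPM against 50.6, 51.1, 51.5 and 48.8 CPM. Chrnd fell by 1.33, at 17.95, 17.21, 14.18 and 17.77 CPM against 42.4, 44.8, 41.8 and 44.6 CPM. These 3 of 8 members were at least 2-fold lower, beside 3.72% of all 13092 genes tested, and 0 were higher, beside 3.74%. Chrna1, at -0.84, was under the threshold and past it with TMM scaling, at -1.05. The other ratios were -0.52 for Chrnb1, -0.35 for Rapsn, -0.31 for Musk and -0.23 for Lrp4, and the members' median was -0.68 against 0.19 for all genes. Myog was at 338 CPM in Pax7-detected cells and 2297 CPM in the others.

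Within cells under 300 CPM of Myog, where Myog was at 64.4 CPM with Pax7 and 74.1 CPM without, the Pax7 difference was under 2-fold for every member tested. Malat1 was at 9304 and 7008 CPM on these sides, and its part in the values was not tested. Of 8 members, 0 were past 2-fold in either direction, beside 0.119% of the 11794 genes higher and 0% lower. The members' median log2 ratio was -0.16, against 0.09 for all genes tested, and 0 of the 8 were above the latter. The share of genes tested at or above a member's ratio ran from 59.1% for Musk to 97.2% for Chrnd. Chrng was at 27.7, 22.6, 24.6 and 21.6 CPM with Pax7 and at 31.0, 26.9, 27.7 and 31.4 CPM without, a log2 ratio of -0.27 whose interval (-0.60 to 0.07) includes 0. Chrna1 was at 541, 527, 515 and 519 CPM with Pax7 and at 605, 607, 609 and 606 CPM without, and its log2 ratio was -0.21 (interval -0.28 to -0.13). Chrnd was at -0.28 with an interval from -0.75 to 0.18, and Dok7 at -0.11 with one from -0.54 to 0.35. Lrp4 was at -0.25 with an interval from -0.56 to 0.05. These intervals leave room for differences of either sign in Chrnd, Dok7 and Lrp4, and they do not reach a 2-fold change. Even in Pax7-detected cells under 300 CPM of Myog, Chrna1 stood at 526 CPM, Rapsn at 129 CPM and Musk at 89.3 CPM.

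Cell cycling was read from a UMI of Mki67 or Top2a, genes of dividing cells, in thinned cells at Myog of at least 1000 CPM. Between 556.5 cells with such a UMI and 1910.5 without, averaged over files, 0 of 8 members were past 2-fold, beside 6.08% of the 11439 genes higher and 2.13% lower. Chrng was at 81.5, 91.5, 89.6 and 100 CPM in cycling cells and at 155, 155, 157 and 160 CPM in the others, a log2 ratio of -0.79 (interval -0.98 to -0.59). Chrnd was at -0.62 and Chrna1 at -0.50, while Lrp4 was at 0.20 with an interval of -0.09 to 0.49. Cycling cells also had less Myog, 2872 against 4114 CPM, less Acta1, 1756 against 4844 CPM, and less Malat1, a nuclear RNA, 6210 against 9595 CPM, and the part of these in the members' ratios was not tested.

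**Figure D4:**
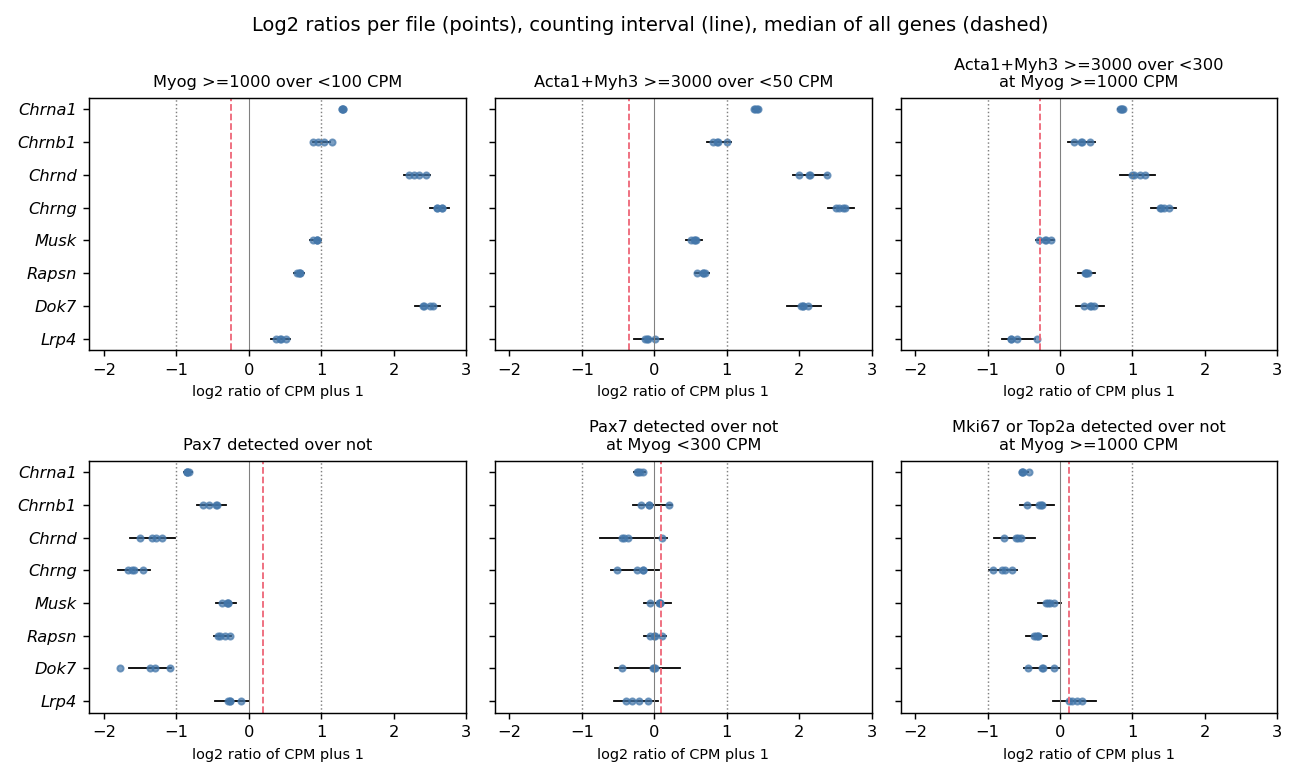
Log2 ratios of CPM plus 1 for each gene in the comparisons by Myog, sarcomere genes, Pax7 and cycling, with 1 point per file, counting intervals as lines and the median of all genes dashed. Chrng, Chrnd and Dok7 lie farthest from 0 by Myog (2.63, 2.32 and 2.47) and by Pax7 (-1.58, -1.33 and -1.38).

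In thinned cells, Chrna1 was found in 94.1% of cells, Rapsn in 53.5%, Musk in 39.7%, Chrng in 28.8%, Chrnb1 in 24.9%, Dok7 in 18.6%, Chrnd in 16.05% and Lrp4 in 15.9%. Without thinning the shares were 97.5%, 78.1%, 60.6%, 46.5%, 45.9%, 34.9%, 30.2% and 29.8% in the same order, since deeper cells show more genes. A cell type that should lack these genes is not known in the files, so the lowest Myog bin is given as the background. Chrng was found in 10.5% of 1760 cells under 100 CPM of Myog (median 11473 UMIs) and in 48.1% of 1504 cells at 3000 CPM or more (median 10808 UMIs). Dok7 went from 5.28% to 33.8%, Chrnd from 5.57% to 27.5%, Rapsn from 44.2% to 62.7% and Chrna1 from 86.5% to 99.6%. Musk was found in 28.6% of cells in the lowest bin, 53.9% at 1000 to under 3000 CPM and 29.5% at 6000 CPM or more, so the peak of its level was also a peak in the share of cells. Lrp4 showed the same shape, at 12.7%, 21.7% at 300 to under 1000 CPM and 9.20% at 6000 CPM or more.

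Counts of Chrna1 moved up across the range of cells and not only in a few. Its median was 2 UMIs per thinned cell in the lowest Myog bin (10th to 90th percentile 0 to 5), 5 UMIs at 1000 to under 3000 CPM and 8 UMIs (4 to 14) at 6000 CPM or more. The mean number of members found per cell went from 2.11 to 3.65 between the lowest bin and the bin of 3000 to under 6000 CPM. All 4 subunits of the fetal receptor were found together in 0.185% of cells in the lowest bin and in 5.82% in the highest. Among cells at Myog of at least 3000 CPM, Chrnd was found in 31.6% of cells with Chrng (interval 28.2% to 35.1%) and in 23.7% of cells without (20.8% to 26.8%). Rapsn was found in 66.1% of cells with Chrng (62.6% to 69.6%) and 59.5% without (55.9% to 62.9%), where the intervals just overlap. For Musk, Dok7, Chrnb1 and Lrp4 the shares with and without Chrng differed by at most 1.65 percentage points, with overlapping intervals.

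Because RNA free in the suspension can give UMIs in cells that do not express a gene, levels at the least differentiated end were set beside those of strict differentiation genes. In 536 cells under 100 CPM of Myog and under 50 CPM of the sarcomere genes, Actc1, Ckm, Mymx and Tnnc1 stood at 0.872%, 0.923%, 1.30% and 1.72% of their level in the 1338 cells at the differentiated end, Mymk at 3.22%, Ttn at 5.34% and Tnnt1 at 10.8%. The members' shares were higher, narrowly so for Chrng next to Tnnt1: Chrng at 11.6%, Dok7 at 12.9%, Chrnd at 15.96%, Chrna1 at 33.8%, Chrnb1 at 48.7%, Musk at 57.5%, Rapsn at 58.5% and Lrp4 at 88.0%. Myod1, whose reporter defined the sort, stood at 55.9%. The shares of the members thus differed from one another. The low end was chosen for little Myog, Acta1 and Myh3, which favours low values of genes that follow these. The part of free RNA in any of the shares was not tested.

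Musk and Lrp4 also set themselves apart by a measure of the cells' nuclear RNA. Malat1 is a long noncoding RNA that stays in the nucleus, and 151 of the 2559 cells at Myog of at least 1000 CPM had under 1000 CPM of it. In these cells Musk was at 55.4 CPM against 158 CPM in the other 2408, 0.350 times the level, and Lrp4 was at 18.4 against 41.9 CPM, 0.439 times. The 6 other measurable members were at 0.835 to 1.15 times. Over all kept cells poor in Malat1, Musk was at 0.285 times and Lrp4 at 0.486 times. There the other 6 ran from 0.681 times for Dok7 and 0.745 times for Chrnb1 to 1.14 times for Rapsn. The 463 barcodes left out by the cell filter (median 1207 UMIs, 40.9% mitochondrial) leaned the other way for Musk and Lrp4. With mitochondrial genes removed from the totals, Malat1 was at 4.02 times its level in kept cells, Musk at 3.59 times and Lrp4 at 3.07 times. Dok7 was at 2.36 times, Chrnb1 at 1.75 times, Chrng at 1.62 times and Chrnd at 1.24 times. Rapsn was at 0.811 times, Chrna1 at 0.527 times and Gapdh at 0.270 times. The peaks of Musk and Lrp4 along Myog remained without the Malat1-poor cells, an alternative chosen after the data were seen: the last bin was then at 46.2% of the highest for Musk and 36.0% for Lrp4. Malat1 itself was at 9290, 9295 and 7482 CPM in the last 3 Myog bins. In the same bins Musk was at 179, 146 and 81.4 CPM and Lrp4 at 52.0, 34.8 and 20.1 CPM. Along the sarcomere genes Malat1 was highest, at 11527 CPM, in the last bin, where Musk was at 130 CPM and Lrp4 at 25.9 CPM. The part of nuclear RNA in the courses of Musk and Lrp4 was not tested.

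**Figure D5:**
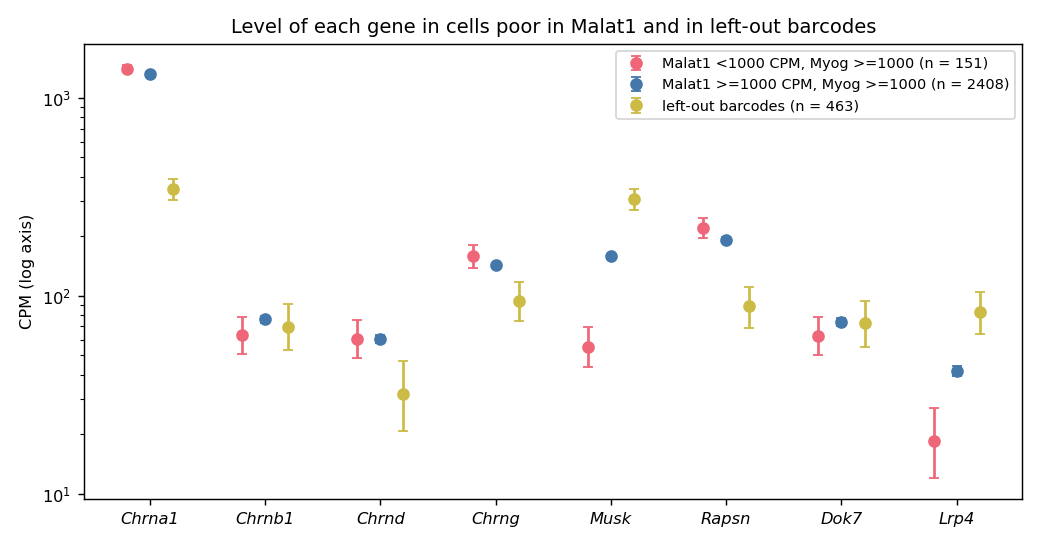
Level of each gene in CPM (log axis) in cells at Myog of at least 1000 CPM that are poor in Malat1 (151 cells) or not (2408 cells), and in the 463 left-out barcodes, with 95% counting intervals. Musk lies at 55.4, 158 and 308 CPM and Lrp4 at 18.4, 41.9 and 82.6 CPM in these sets. Totals here include mitochondrial UMIs, a median of 40.9% in the left-out barcodes. The ratios of left-out barcodes in the text leave these UMIs out and are taken to all kept cells.

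For each of the 8 measurable members, the genes of most like course were found by Pearson correlation of log2 CPM plus 1 over the 22 joint bins of Myog and sarcomere gene level with at least 30 cells, among 12892 genes. The bins come from the same libraries and the same axes, so the coefficients are descriptions. Chrng was closest to Klhl40, a kelch protein of the sarcomere thin filament (r = 0.993), to Chrnd (0.992) and to Pgam2, the muscle phosphoglycerate mutase (0.989). The closest to Chrna1 were Cfl2, the muscle cofilin (0.990), Arl6ip5 (0.988) and the glycolytic enzyme gene Aldoa (0.986). Chrnb1 was closest to Sh3glb1 (0.980), Rapsn to the calcium channel subunit gene Cacng1 (0.981) and Dok7 to Iffo1 (0.985). Musk had no equally close partner, with Gprasp1 (0.859), Tmcc1 (0.856) and Fto (0.851) leading, and Lrp4 was nearest to Picalm (0.923), Herc1 (0.916) and Bmpr1b (0.912). Among the members, Musk and Lrp4 were at 0.702 with each other, whereas Chrna1 was at 0.03 with Musk and at -0.54 with Lrp4.

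Other genes of the synapse were counted in the comparison of Myog at 1000 CPM or more with under 100 CPM. Over all genes tested in it, 7.32% were at least 2-fold higher and 14.8% lower. Of 17 genes of the agrin ligand and MuSK signalling, 1 was past 2-fold higher and 1 lower, which is no more than those shares in either direction. The higher was Macf1, a cytoskeletal crosslinker that binds rapsyn (1673 against 265 CPM, log2 ratio 2.65), and the lower was the kinase gene Abl1 (14.0 against 29.3 CPM, -1.01). Agrn itself was at 2.83 CPM over all kept cells. Of 7 measurable neuregulin pathway genes, Erbb3, a neuregulin receptor, was higher (49.8 against 6.93 CPM, 2.68), while the ETS factor gene Etv4 (-2.26) and the ligand gene Nrg1 (-1.47) were lower.

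Scaffold and channel genes had 5 of 11 members higher, led by the syntrophin gene Sntb1 (632 against 35.7 CPM, 4.11), the dystrobrevin gene Dtna (3.13) and Nes, an intermediate filament gene (2.70). The 2 lower were another syntrophin gene, Sntb2 (11.4 against 40.6 CPM, -1.75), and Ank3 (41.7 against 88.4 CPM, -1.07). Of 10 esterase and synaptic matrix genes, 2 were higher: Col13a1, a transmembrane collagen of the synapse (8.46 against 0.476 CPM, 2.69), and Ache, the acetylcholinesterase (3.93 against 0.972 CPM, 1.32). Genes known for their response to denervation had 4 of 8 higher and 0 lower, among them Trim63 (46.2 against 1.03 CPM, 4.54), Gadd45a (3.105) and Gadd45b (1.41). None of the 5 receptor assembly genes passed the fold in either direction. Their list median was -0.33, and the medians were -0.11 for signalling, -0.54 for neuregulin, -0.31 for esterase and matrix, 0.71 for scaffold and channel and 1.19 for denervation genes, beside -0.24 for all genes tested. Of the 11 nicotinic subunits outside the muscle receptor, 2 were measurable and 0 passed the fold. Chrna3 and Chrnb3 were listed at 0 in every file, where the floor of 3 UMIs per file is 0.0455 CPM.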

How the data were processed

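The deposited counts are whole numbers of UMIs for each gene and barcode. Per the file headers, the authors ran Cell Ranger 7.1.0, whereas the submitters' processing notes name Cell Ranger 3.1.0, mm10 and GRCm39. Barcode calling, annotation and the intron setting are not given in the sources used here. The members and lists were chosen with earlier results of these data known. Kept cells were in all 4 files. UMIs were summed over cells, scaled to CPM and averaged over the files. Intervals (Poisson, Clopper-Pearson or conditional binomial, 95%) describe counting error alone and say nothing of the spread among mice or cultures. Comparisons used log2 of CPM plus 1, a fold of 2 and at least 20 UMIs per file over both sides. With 1 sample, no p-value was computed. Total UMIs per file were 62627341 to 68898900, and 284 kept cells under 5000 UMIs were left out by thinning. Doublets were not removed. Genes named are the 9 members, list genes past 2-fold by Myog with the highest CPM (at most 3 a list), list genes at 0 and the 3 most like genes of each member. Agrn was named after its value was seen, as the ligand of the pathway, and so were Sntb2 and Ank3, as the lower genes of their list. Alternatives were TMM factors (edgeR 4.0.16), median-ratio size factors (DESeq2 1.42.0), other count minimums, a stricter cell filter, other thinning, cells without low Malat1 and leaving out each file. Scripts used Python 3.11.15, scipy 1.17.1 and R 4.3.3 and were tested on simulated data. Protein sequences were not used here.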

Additional observations from a re-analysis of the deposited data

Results flagged for a closer look

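Of 67 values compared over the 4 files, 10 (14.9%) had 1 file set apart from the other 3, where chance alone gives about 5%. The files share cells, so these gaps are differences between repeat measurements. Rapsn was at 156 CPM in replicate 2, with the others at 159 to 160 CPM. Chrng was found in 29.9% of thinned cells in replicate 4, beside 28.4% to 28.5% in the others. In the Myog comparison the log2 ratio of Musk was 0.89 in replicate 3, and the next file was at 0.94. In the Pax7 comparison Chrna1 was at -0.82 in replicate 1 and Lrp4 at -0.11 in replicate 3. Under 300 CPM of Myog, the Pax7 ratio was 0.11 for Chrnd in replicate 2, where the next file was at -0.37, -0.064 for Musk in replicate 3 and -0.45 for Dok7 in replicate 2. In the cycling comparison, Chrna1 was at -0.43 in replicate 3 and Chrnb1 at -0.46 in replicate 1.

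The barcodes left out by the cell filter held 891.25 UMIs of the 9 members per file. These barcodes had a median of 1207 UMIs. They entered none of the comparisons by Myog, sarcomere genes, Pax7 or cycling, and were set beside kept cells only in the description of Malat1.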

How the results depend on the processing

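No paired analysis was possible because the samples form 1 group. In all 77 alternative values, counts of members past 2-fold stayed within 1.5 times the reported ones and the gamma share stayed within its counting interval. Leaving out each file gave 4 to 5 members for Myog, 4 and 2 for the sarcomere comparisons, 3 for Pax7 and 0 for the others, and a gamma share of 99.89% to 99.93%. Calls moved for single genes: Chrnb1 in the Myog comparison was under 2-fold without replicate 2, without replicate 4, without Malat1-poor cells, with thinning to 5000 UMIs and with bins and values from different files. TMM and median-ratio scaling each added Musk by Myog, Chrnb1 and Rapsn by sarcomere genes, and Chrna1 by Pax7 and by sarcomere genes at high Myog. Both turned the sign of Lrp4 by sarcomere genes (0.30 and 0.32) and of Musk by sarcomere genes at high Myog (0.09 and 0.10), which by construction follows from moving the all-gene median. Of values for single genes, 612 stayed within their counting interval, in the same bin or within a set tolerance, 98 did not and 0 reversed a call. The 612 include 48 log2 ratios with no minimum count and 48 with at least 100 UMIs, which by construction could not move. Both the 612 and the 77 include values with 1 file left out, where the remaining files hold the same cells. The totals therefore overstate how far the results were tried. The stricter filter (2000 genes, 5% mitochondrial) put Chrna1 at 920 CPM and Chrng at 77.8 CPM. Depth leaves Chrne, at 5.5 UMIs per file, without a usable comparison.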
